A study of Sus scrofa with 6 samples.

Results

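The proteasome genes of the porcine aortic valve leaflet were followed between 2 levels of cyclic pressure. Members were all genes whose single symbol in the platform annotation began with PSMA, PSMB, PSMC, PSMD or PSME and a digit, with the probe set of highest mean log2 signal over the 6 arrays taken for each. The rule found 37 genes among 6765 with a single symbol, and all 37 lay above the filter on low signal. The Entrez identifier of each led to the same symbol in RefSeq. The annotation gave 34 of them a single probe set. Of 45 proteasome genes listed by particle, 37 were analysed, and PSMB9, PSMC4, PSMD7 and PSMD9 were among those not analysed here.

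The proteasome degrades proteins marked with ubiquitin. Its core is a barrel of stacked rings, in which alpha subunits (PSMA) form the gate and beta subunits (PSMB) hold the proteolytic sites. A regulatory particle caps the barrel. Its base contains ATPases (PSMC) that unfold substrates and open the gate, and its lid (PSMD) contains the enzyme that removes ubiquitin. In cells exposed to interferon, PSMB8, PSMB9 and PSMB10 take the places of PSMB5, PSMB6 and PSMB7 in newly built cores, giving the immunoproteasome, whose cut sites favour peptides for class I antigen presentation. PSME1 and PSME2 form an interferon-inducible activator that can cap the core in place of the regulatory particle, PSME3 forms a nuclear activator, and PSME4 encodes a single-chain activator.

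Leaflets came from adult female pigs. Collagenase was used to remove their endothelium. After an overnight culture the leaflets were pressurised in a bioreactor at a frequency of 1 Hz for 24 h. Normotensive pressure, the control, cycled between 0 and 80 mmHg and hypertensive pressure between 0 and 120 mmHg, with 3 samples at each. All 6 samples shared the collagenase step, the serum-containing medium and the amplification of the RNA before it was hybridised to an Affymetrix porcine array. Samples are labelled as biological replicates, but no label says that each was a separate animal. The p-values therefore set the difference between groups only against the spread of these samples, which may be technical in part.

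Signals are linear intensities that had been scaled to a common level, with 2% trimmed means of 500.11 to 500.13 on the 6 arrays. Of 9 interstitial cell markers with a probe set, 8 lay above the filter, and VIM, the intermediate filament of mesenchymal cells, had signals of 22536 to 24275 under normotensive pressure. Of the 11 endothelial markers 5 lay above it, PECAM1 and ERG among them, and VWF, KDR and TIE1 were among those below. Hypertensive replicate 2 stood nearer to the control arrays than the other hypertensive arrays did, with a mean correlation of 0.950 over kept probe sets against 0.817 for replicate 1 and 0.895 for replicate 3. Its values are therefore given apart throughout. For the control probe sets of GAPDH, the signal near the 3′ end over that near the 5′ end can reflect both RNA integrity and the amplification. This ratio was 3.02, 2.11 and 7.52 on normotensive replicates 1, 2 and 3. On the hypertensive replicates it was 3.67, 2.91 and 6.04, so replicate 3 was highest in both groups. The part of RNA integrity in the results was not tested.

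All 37 genes had a higher mean signal under hypertensive pressure, where 45.0% of the 5271 kept genes did. The median log2 difference, hypertensive minus normotensive, was 0.52 over the members and -0.07 over all kept genes. In limma's test with Benjamini-Hochberg adjustment over 14399 probe sets, 0 of the 37 passed an adjusted p of 0.05, as did 0% of all probe sets. Adjusted p ran from 0.251 for PSME2 to 0.997 for PSME3. At an unadjusted p under 0.05 there were 7 higher members (18.9%) and 0 lower ones, against 6.85% of kept genes higher and 10.2% lower. The groups did not overlap in 9 members (24.3%), all of them higher, against 9.28% of kept genes higher and 12.6% lower. Because the members were read from the same arrays they are not independent, and these shares are descriptions. In bulk tissue, a change in the cells present and a change in RNA per cell cannot be told apart.

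Markers of the cells in the leaflet were compared in the same way, and 0 of them passed limma's adjusted threshold. All 8 kept interstitial markers had lower means under hypertensive pressure, where 45.0% of kept genes had higher means. The median log2 difference of the 8 was -0.40. LUM, a matrix proteoglycan, was at 13643, 12735 and 13301 against 4740, 10659 and 7658, and POSTN, a matricellular protein, at 12507, 16392 and 14162 against 10065, 8335 and 11419. In these 2 of the 8 the groups did not overlap, where 12.6% of kept genes were apart and lower. Signals summed over the 9 interstitial markers ran from 89958 to 91835 on normotensive and from 68025 to 82918 on hypertensive arrays. Endothelial markers went both ways: of the 5 kept, ERG, an endothelial transcription factor, was lower, at 1675, 1142 and 1780 against 899, 1019 and 973, and SELP, the adhesion molecule P-selectin, was higher, at 95.4, 245 and 90.6 against 2296, 784 and 368. The groups did not overlap in either, where 9.28% of kept genes were apart and higher and 12.6% apart and lower. The other 3 kept markers had lower means. E-selectin (SELE) lay below the filter, at 1.11, 4.50 and 1.62 against 443, 64.6 and 29.3. CDH5, also below the filter, was at 30.3, 12.3 and 40.5 against 68.4, 115 and 84.9. VWF, likewise below it, was at 26.6, 26.3 and 22.7 against 25.0, 20.1 and 6.83. Endothelial sums were 2527 to 3087 under normotensive and 2099 to 4402 under hypertensive pressure. The part of these markers in the proteasome values was not tested.

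**Figure D1:**
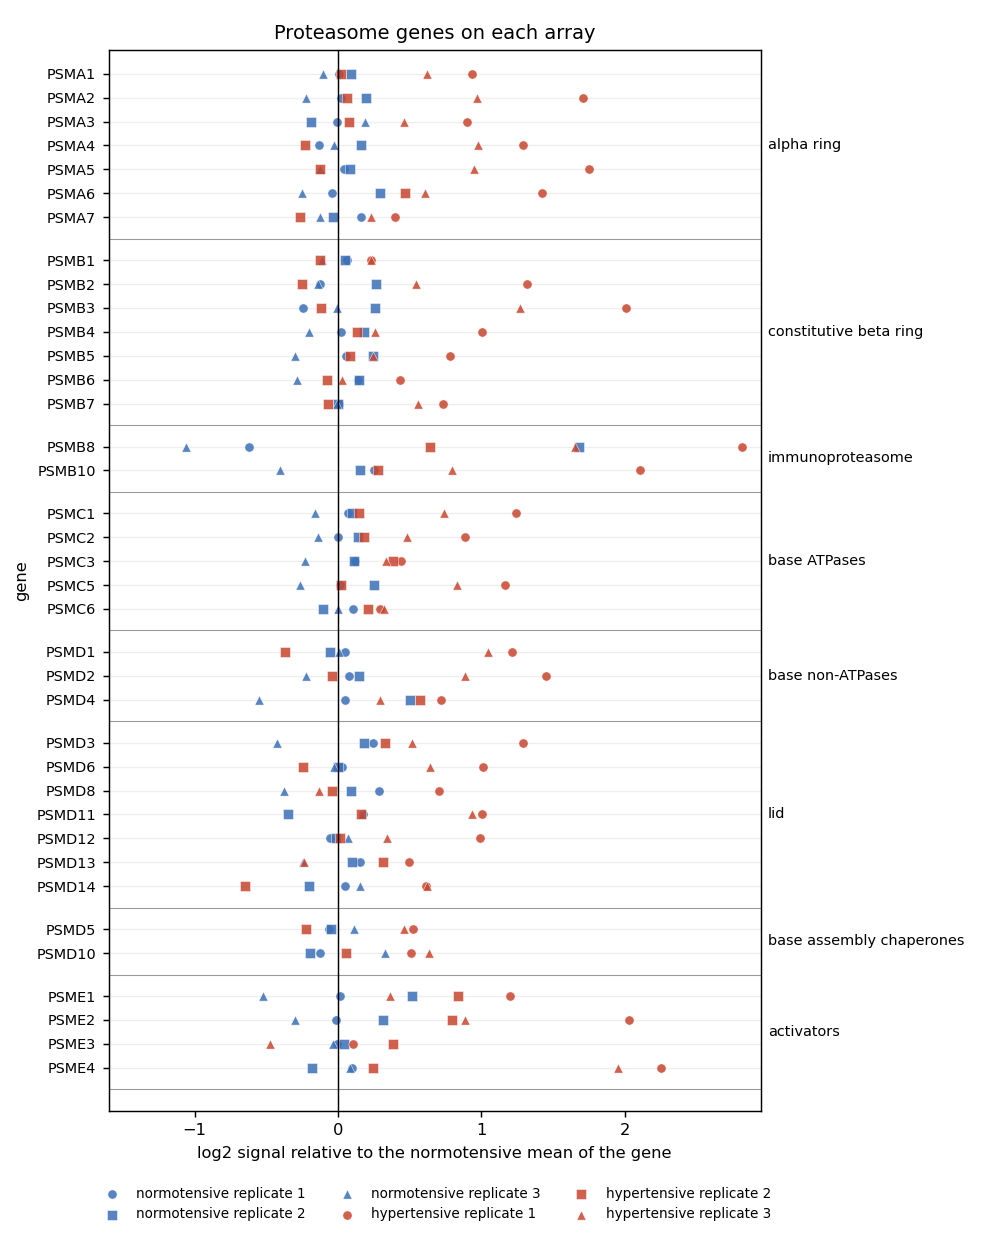
Each row is a proteasome gene and each symbol an array; the horizontal axis is the log2 signal relative to the gene's mean over the 3 normotensive arrays. Hypertensive replicate 1 (red circles) lies to the right of all normotensive symbols in all 37 rows, replicate 3 (red triangles) in 29 and replicate 2 (red squares) in 13.

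The 3 hypertensive arrays did not contribute alike. On replicate 1 all 37 members lay above all 3 normotensive arrays, where 36.9% of kept genes did, and the median deviation from the normotensive mean was 1.00. On replicate 3 the count was 29, against 31.4% of kept genes, with a median of 0.56. On replicate 2 it was 13 members (35.1%), close to the 30.1% of kept genes, and the median was 0.06, inside the range of -0.14 to 0.10 of the normotensive arrays. Replicate 1 was the highest of the 6 arrays for 33 members, against 27.5% of kept genes. Replicate 2 was the lowest hypertensive array for 31.

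The alpha ring, which gates the core, had 7 measured genes, all with higher means, and a median log2 difference of 0.68. On hypertensive replicates 1, 2 and 3 the median of the ring was 1.29, 0.02 and 0.62. PSMA6 was the only alpha gene whose groups did not overlap. Its signals were 3741, 4717 and 3236 on the normotensive and 10323, 5322 and 5853 on the hypertensive arrays, a log2 difference of 0.83 (SE 0.29, limma adjusted p = 0.269). The largest mean difference of the ring was in PSMA2, with 6488, 7334 and 5489 against 20869, 6675 and 12496. Hypertensive replicate 2 of PSMA2 lay among the controls, and the log2 difference was 0.91 (SE 0.37, limma adjusted p = 0.283). The smallest was in PSMA7, at 7671, 6727 and 6304 against 9051, 5735 and 8079, where replicate 2 lay below every control and the 95% interval of the fold ran from 0.776 to 1.53. PSMA1, PSMA3, PSMA4 and PSMA5 had log2 differences of 0.52, 0.48, 0.68 and 0.86.

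The constitutive beta ring also had 7 genes with higher means, and its median difference was 0.40. In none of the 7 were the groups apart. The ring median was 0.78 on hypertensive replicate 1, -0.08 on replicate 2 and 0.26 on replicate 3. PSMB5, the chymotrypsin-like subunit, read 2110.2, 2405 and 1644 under normotensive and 3486, 2149.9 and 2399 under hypertensive pressure. For PSMB6, the caspase-like subunit, the values were 2902, 2922 and 2159.9 against 3563, 2499 and 2694. PSMB7, the trypsin-like subunit, was at 3647, 3627 and 3599.6 against 6013, 3449 and 5328. Only hypertensive replicate 1 exceeded all controls in PSMB5 and PSMB6, while in PSMB7 replicates 1 and 3 did. Their log2 differences were 0.37 (SE 0.27), 0.13 (SE 0.24) and 0.40 (SE 0.24).

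Subunits of the beta ring without a proteolytic site gave the ends of its range. PSMB3 had the largest difference, 1.05 (SE 0.51, limma adjusted p = 0.325), with signals of 109, 154 and 128 against 518, 119 and 310.3. Its fold of 2.07 became 3.11 without hypertensive replicate 2, and the difference then passed (limma adjusted p = 0.0126). Without that array 10.3% of kept probe sets passed as higher. PSMB1 had the smallest, 0.11, with 5309, 5268 and 4715 against 5976, 4657 and 5975. PSMB2 and PSMB4 were between them, at 0.54 and 0.46.

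Of the immunoproteasome subunits, PSMB8 and PSMB10 were measured, and both had higher means, with a median difference of 1.38 against 0.40 for the constitutive beta ring. PSMB8 had signals of 83.3, 411 and 61.6 on normotensive replicates 1, 2 and 3 and of 905, 201 and 404 on the hypertensive ones. Normotensive replicate 2 lay above hypertensive replicates 2 and 3, so the groups overlapped. The log2 difference was 1.71 (SE 0.78, limma adjusted p = 0.307), a fold of 3.26 with a 95% interval from 0.946 to 11.3. Without normotensive replicate 2 the fold was 5.84, and without hypertensive replicate 1 it was 2.22. The normotensive SD of PSMB8 on the log2 scale, 1.47, was the largest of the 37 members, whose median was 0.20.

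Normotensive replicate 2 also carried more signal of some other cells. The median of the 7 kept leukocyte markers on that array was 0.60 above the normotensive mean, against -0.03 and -0.37 on replicates 1 and 3. PTPRC, which encodes CD45 of all leukocytes, was at 127 there and at 55.8 and 66.0 on the other control arrays. PECAM1, of endothelial cells and some leukocytes, was at 1396 against 436 and 409. Summed over the 9 leukocyte markers with a probe set, signals were 2571, 3950.2 and 2074 under normotensive and 899.7, 3039.7 and 1702 under hypertensive pressure, and CD3E and ITGAM lay below the filter. On hypertensive replicate 1, where PSMB8 was highest, that sum was the lowest of all arrays. CD163 made up much of the sum, at 1497, 2261 and 1294 against 270, 1794 and 875. On the same array CORO1A and CD14 lay above all controls, at 173 and 68.6, and the other kept markers lay below them. Of the 7 kept markers, 2 had higher and 5 lower means under hypertensive pressure. Groups did not overlap in 1 lower marker, PTPRC, at 36.9, 52.6 and 15.3 on the hypertensive arrays, and in 1 higher, CORO1A. Among kept genes 12.6% were apart and lower and 9.28% apart and higher. CORO1A and CD163 each had 2 kept probe sets, only 1 of which had the sign of its difference here. The part of leukocytes in the PSMB8 values was not tested.

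PSMB10 was steadier among the controls, at 432, 403 and 274, and read 1566, 441 and 630.0 under hypertensive pressure. All 3 hypertensive arrays lay above the controls, although replicate 2 did so by less than the spread among the controls. The log2 difference was 1.06 (SE 0.47, limma adjusted p = 0.299). Leaving out hypertensive replicate 2, the lowest of the 3, raised it to 1.45, which passed (limma adjusted p = 0.0397). In that setting 10.3% of kept probe sets passed as higher.

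**Figure D2:**
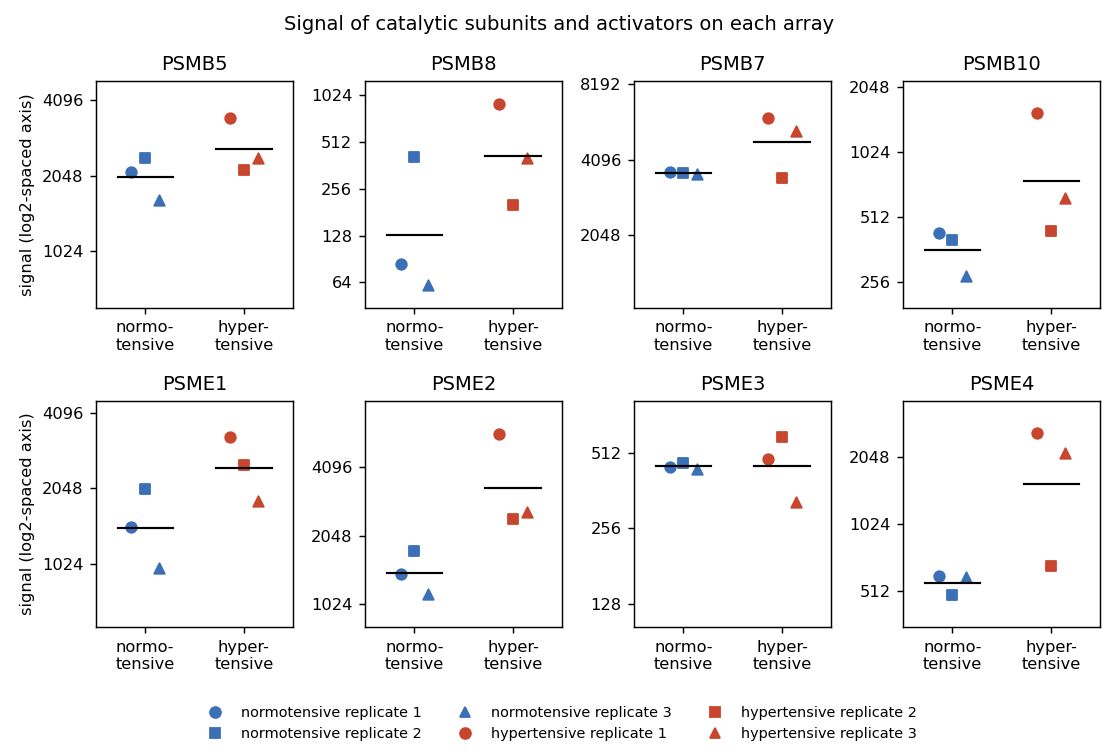
Signal, on a log2-spaced axis that spans at least 8-fold in each panel, of the constitutive subunits PSMB5 and PSMB7, the inducible PSMB8 and PSMB10 and the 4 activators on each array; lines are geometric means of 3 arrays. PSMB8 of normotensive replicate 2, at 411, lies with the hypertensive arrays, and the 2 means of PSME3 nearly coincide.

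To ask whether the inducible subunits differed more than the constitutive ones they replace, the log2 ratio of each pair was taken on every array and set to a normotensive mean of 0. The ratio of PSMB8 to PSMB5 was -0.68, 1.43 and -0.75 in the control group and 2.04, 0.56 and 1.41 in the hypertensive group. Its mean was 1.34 higher under hypertensive pressure (exact 2-sided permutation p = 0.3, adjusted p = 0.3 over 2 pairs). That of PSMB10 to PSMB7 was 0.24, 0.15 and -0.40 against 1.38, 0.35 and 0.24, a mean difference of 0.66 (exact permutation p = 0.2, adjusted p = 0.3). With 3 arrays in each group the smallest possible p is 0.1, so neither pair could pass. In both pairs the groups overlapped; for PSMB10 to PSMB7, hypertensive replicate 3 lay just below normotensive replicate 1. Without hypertensive replicate 1 the PSMB10 ratio differed by 0.30, and without normotensive replicate 2 the PSMB8 ratio by 2.05.

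**Figure D3:**
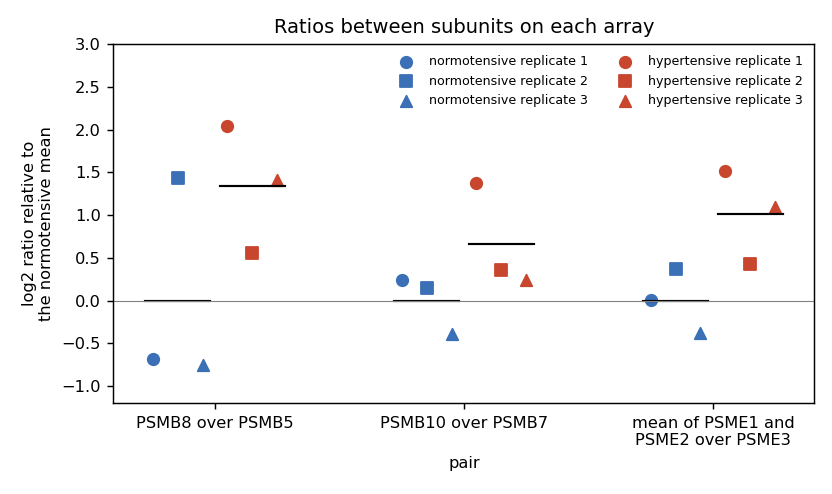
Log2 ratio of each pair on each array relative to its normotensive mean, with lines at the group means. The PSMB8 to PSMB5 ratio of normotensive replicate 2, 1.43, lies between those of hypertensive replicates 3 and 1, and in the activator pair all 3 hypertensive arrays lie above the controls at the deposited scaling.

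The base of the regulatory particle had 5 measured ATPases, which thread substrates into the core, with a median difference of 0.52 and groups apart in 4 of the 5, all higher, where 9.28% of kept genes were apart and higher. With the mean of a gene's probe sets it was 3 of the 5, PSMC2 then overlapping. PSMC1 had the largest difference, 0.71 (SE 0.29, limma adjusted p = 0.287), with 2720.0, 2772.5 and 2317 against 6132, 2867 and 4326. PSMC2 was at 3253, 3581 and 2961 against 6031, 3687 and 4537. In both, hypertensive replicate 2 exceeded the highest control only narrowly. The 2 further probe sets of PSMC2 had smaller differences, 0.10 and 0.26, and their groups overlapped.

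PSMC3 and PSMC6 showed another pattern, in which the 3 hypertensive arrays lay close together. Signals of PSMC3 were 4101, 4070.4 and 3225 under normotensive and 5111, 4929 and 4771 under hypertensive pressure. Those of PSMC6 were 6896, 5980.2 and 6423 against 7867, 7431 and 8036. Differences were 0.39 (SE 0.19) and 0.28 (SE 0.16), with limma adjusted p of 0.331 and 0.378. The remaining ATPase, PSMC5, had a difference of 0.67 with hypertensive replicate 2 among the controls. On that replicate 4 of the 5 ATPases lay above all controls, against 1 of the 14 genes of the core and 30.1% of kept genes. For PSMC2 this held only on the probe set of highest signal. On its 2 further probe sets replicate 2 was at 1329 and 822. Controls there were at 1704, 1864 and 1922 and at 845, 1046 and 810. Whether the particles differ in this was not tested.

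The base subunits that are not ATPases are scaffolds and ubiquitin receptors, and their 3 genes had a median difference of 0.63. PSMD2, a scaffold of the base, was at 2561, 2691 and 2085 against 6655, 2366 and 4488, a log2 difference of 0.77 (SE 0.37, limma adjusted p = 0.317). PSMD1, the other scaffold, had a difference of 0.63, and its further probe set one of 0.74. In both scaffolds, replicates 1 and 3 lay above all controls and replicate 2 did not. The ubiquitin receptor PSMD4 was at 530.4, 723 and 349 against 844, 761 and 628, a difference of 0.53. Here it was hypertensive replicate 3 that lay among the controls. The median of the 3 genes was 1.13 without hypertensive replicate 2.

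The lid, which removes ubiquitin chains before the substrate enters, had 7 measured genes with a median difference of 0.45. PSMD3 was the only one whose groups did not overlap, at 259, 247 and 163 against 535, 274 and 312, with a difference of 0.71 (SE 0.36, limma adjusted p = 0.333). PSMD11 had one of 0.70 and 2 further probe sets at 0.82 and 0.29. PSMD14, the deubiquitinating enzyme of the lid, had a difference of 0.19, with hypertensive replicate 2 the lowest and replicates 1 and 3 the highest of the 6 arrays. The smallest difference, 0.18, was in PSMD8, at 2985, 2604 and 1889.9 against 3996, 2383 and 2238. In PSMD8 and in PSMD13, at 0.19, hypertensive replicate 3 lay within the control range. PSMD6 and PSMD12 had differences of 0.47 and 0.45. PSMD8 and PSMD14 turned below 0 without hypertensive replicate 1, at -0.08 and -0.01.

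Among the chaperones that assemble the base and are absent from the finished particle, PSMD5 was at 1018, 1031 and 1152 against 1532, 912 and 1465. PSMD10, which is also known as the oncoprotein gankyrin, was at 980.5, 935 and 1342 against 1528, 1112 and 1665. Differences were 0.25 (SE 0.28) and 0.40 (SE 0.28), the groups overlapped in both, and in both replicates 1 and 3 lay above the controls.

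**Figure D4:**
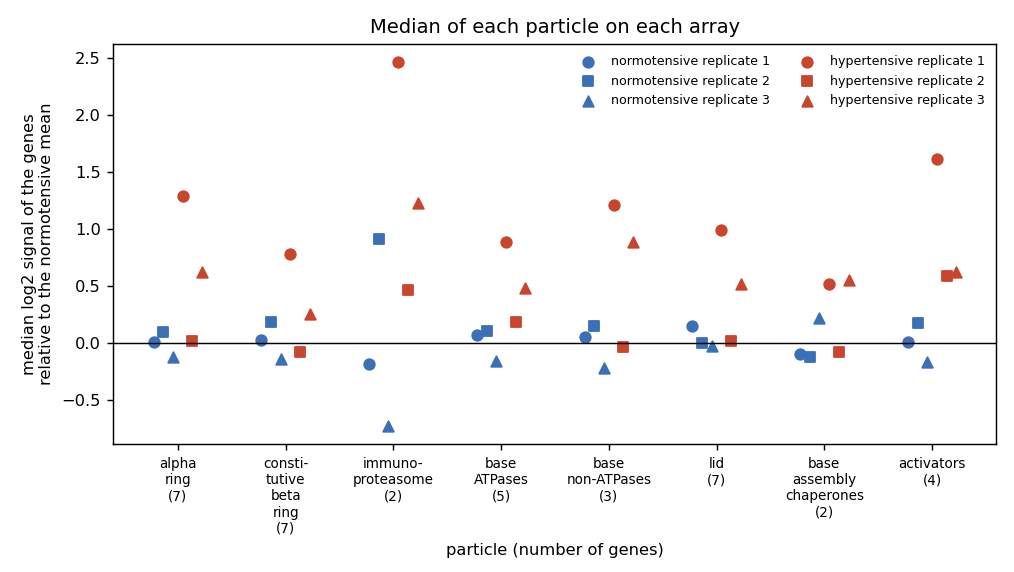
Median log2 signal of each particle's genes on each array, relative to the normotensive mean of each gene, with the number of genes in brackets. Hypertensive replicate 1 is at 0.52 to 2.46, and replicate 2 lies above all controls for the base ATPases (0.18) and the activators (0.59) only.

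The activators spanned the widest range of differences of all particles. PSME2, which pairs with PSME1, had the smallest p of all members. Its signals were 1395, 1749 and 1139.8 under normotensive and 5746, 2439.7 and 2594 under hypertensive pressure, so that every hypertensive array lay above the controls. The fold was 2.36, with a 95% interval from 1.32 to 4.22 (log2 difference 1.24, SE 0.37, limma adjusted p = 0.251). PSME1 was at 1432, 2025 and 985 against 3267, 2530.2 and 1824, a difference of 0.80 (SE 0.34, limma adjusted p = 0.291). Hypertensive replicate 3 of PSME1 lay below normotensive replicate 2. On hypertensive replicate 2, PSME1 and PSME2 lay 0.84 and 0.80 above their normotensive means, where the median of the 14 core genes was -0.07; this contrast within 1 array was not tested.

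PSME4 had signals of 593, 489.8 and 589 against 2643, 659 and 2149. All hypertensive arrays lay above the controls, replicate 2 by little. The fold was 2.80 (log2 difference 1.48, SE 0.50, limma adjusted p = 0.266). Without hypertensive replicate 2 it was 4.29 and passed (limma adjusted p = 0.00273), when 10.3% of kept probe sets passed as higher. PSME3 was at 449.8, 464 and 441 against 484, 589 and 325. Its difference was 0.00375 (SE 0.30), with a 95% interval of the fold from 0.620 to 1.62. The log2 ratio of the mean of PSME1 and PSME2 to PSME3 was 0.0057, 0.37 and -0.38 on the normotensive and 1.52, 0.43 and 1.10 on the hypertensive arrays. This difference of 1.01 had the smallest p that 3 against 3 allows (exact 2-sided permutation p = 0.1). With quantile normalization it was 0.90 and the groups overlapped (exact permutation p = 0.2), while the PSMB10 to PSMB7 ratio then had its groups apart (exact permutation p = 0.1).

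In RefSeq's annotation of assembly Sscrofa11.1, PSMB8 lies between TAP2 and TAP1, with PSMB9 next to TAP1 on its other side. The peptide transporter gene TAP1 had signals of 592, 904 and 544 under normotensive and 13349, 3021 and 6723 under hypertensive pressure. Its fold was 9.76 (limma adjusted p = 0.131) where that of the neighbouring PSMB8 was 3.26. All 3 hypertensive arrays lay above the controls for TAP1 and not for PSMB8. PSME2 lies beside IRF9, with EMC9 between it and PSME1.

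Other genes of the pathway were read from lists, in which 0 of 29 kept genes passed limma's threshold in either direction. At an unadjusted p under 0.05 there were 7 higher and 1 lower, against 6.85% of kept genes higher and 10.2% lower. Of 9 kept genes for assembly, inhibition and accessory factors, 5 had higher and 4 lower means, with a median difference of 0.03 against 0.52 for the subunits. TXNL1, a thioredoxin-like protein bound to the regulatory particle, was at 1.84 times the normotensive signal (limma adjusted p = 0.238). PSMF1, an inhibitor of the core, was at 494, 652 and 523 under normotensive and 355, 418 and 205 under hypertensive pressure. The PSMF1 groups did not overlap, with lower signal on all hypertensive arrays, and the log2 difference was -0.82 (SE 0.34, limma adjusted p = 0.284). PAAF1, which binds base ATPases, had a difference of -1.18 (SE 0.53). SEM1, a small lid subunit outside the naming rule, had one of -0.01.

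The list for NFE2L1, the factor that induces subunit genes when proteasome activity is short, had only VCP measured, the segregase of its processing, with a difference of 0.47 (SE 0.34). Of the ubiquitin and shuttle genes, UBB, RPS27A and BAG6 were kept, at 0.32, 0.15 and 0.39. For RPS27A only 1 of its 2 kept probe sets had this sign. Means were higher for 6 of 7 kept interferon regulators, whose median difference was 0.64. IRF1, the factor that drives inducible subunits, was at 287, 284 and 220 against 5788, 602 and 1305, a fold of 6.33 (limma adjusted p = 0.238). IRF8 and STAT2 were at 2.84 and 2.44 times. The groups were apart and higher in 4 of the 7 kept regulators, against 9.28% of kept genes. IRF1, IRF8 and STAT2, named here for their small p, were among the 4. Hypertensive replicate 1 was the highest array in each of these 3, as it was for 33 of the 37 members.

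Of 9 kept genes for peptide transport and trimming after the proteasome, 7 had higher and 2 lower means, with a median of 0.28. TAPBP, the chaperone that joins class I molecules to the transporter, was at 3.44 times the normotensive signal (limma adjusted p = 0.231). B2M, the light chain of class I molecules, was at 1.29 times, and 5 of its 8 kept probe sets had the same sign.

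Counts of members past the threshold turned on hypertensive replicate 2. Without it, limma called 20 of the 37, all higher, where 10.3% of kept probe sets were called higher, and the groups did not overlap in 29, against 24.0% of kept genes. The 20 were 6 of 7 alpha genes, 3 of 7 constitutive beta genes, PSMB10, 3 of 5 base ATPases, both scaffolds, 3 of 7 lid genes, PSME2 and PSME4. Array weights, which change several arrays at once, were 0.195 and 0.289 for hypertensive replicates 2 and 1 and 6.96 for normotensive replicate 1. With them 20 were called as well, against 16.9% of kept probe sets higher, and 33 of the 37 had higher means, the exceptions being PSMB6, PSMD8, PSMD13 and PSME3. Without hypertensive replicate 1, 0 of 37 were called and 32 had higher means, the exceptions being PSMA7, PSMB6, PSMD8, PSMD14 and PSME3. Without normotensive replicate 2 the groups did not overlap in 17 members, against 14.3% of kept genes, PSMB8 now among them. The median of all members ranged from 0.34 without hypertensive replicate 1 to 0.78 without replicate 2. Those of the immunoproteasome, with 2 genes, and of the activators were 0.84 and 0.72 without replicate 1. That of the constitutive beta ring was then the lowest, at 0.16. The remaining particles ran from 0.18 for the lid to 0.42 for base subunits other than ATPases.

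**Figure D5:**
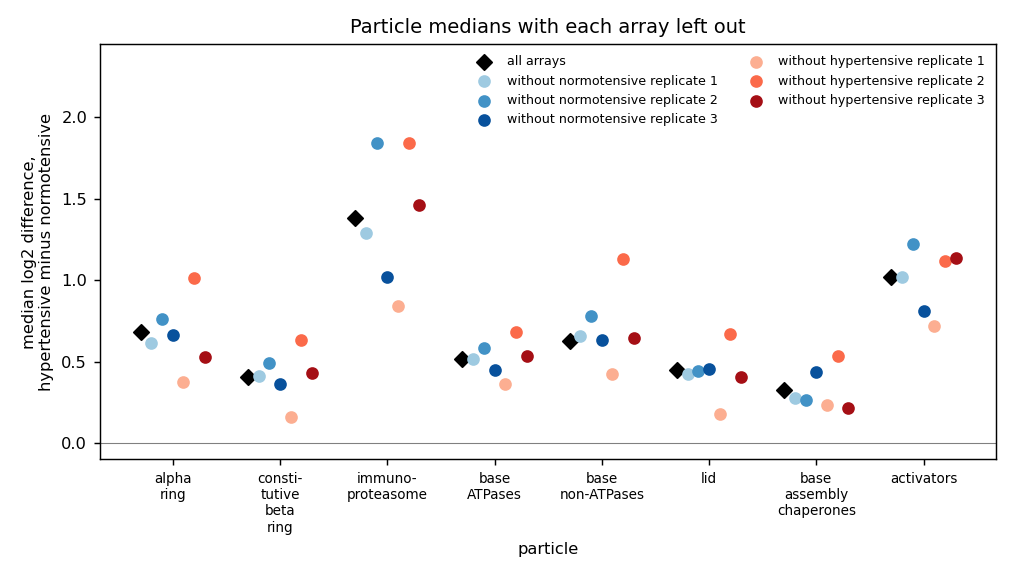
Median log2 difference of each particle's genes with all arrays (black diamonds) and with each array left out in turn (circles). All medians stay above 0. The lowest is the one without hypertensive replicate 1 in all particles but the assembly chaperones, and the highest the one without replicate 2 in all but the activators, as with 0.38 and 1.01 in the alpha ring.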

How the data were processed

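Transcripts were measured on 6 arrays, 3 per pressure. Per the labels, the authors amplified the RNA by repeated transcription. The values they deposited are intensities, not logged, with a single value for a probe set on each array; GCOS and MAS5 are named in the submitters' processing notes, and their versions were not given in the sources used here. Scaling to a common level hides any change shared by most transcripts. No detection calls were used, and with 3 arrays per group precision is limited.

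Of 24123 probe sets, 124 controls were left out, and of the other 23999 there were 10069 with 1 symbol, 198 with several and 13732 with none. Values were taken to log2 without a pseudocount and kept where their mean was at or above the 40th percentile, a signal of 48.5, which left 14399 probe sets and 5271 genes at 1 probe set each. The comparison used lmFit and eBayes of limma 3.58.1 (R 4.3.3), 2-sided and with a trend on intensity; Benjamini-Hochberg adjustment ran over all kept probe sets, and the code was tested on simulated data. Ratios of pairs were compared by exact permutation.

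Members and lists were chosen with earlier results of these data known. Values on every array are given for immunoproteasome subunits, activators, PSMB5, PSMB6, PSMB7, members whose groups did not overlap and those of highest and lowest difference in each particle; up to 3 genes of smallest p are named from each list, and further genes were named after their values were seen. The PSMB9 to PSMB6 ratio was not analysed. As alternatives, the replicate number was fitted as a block, and 2 other normalizations, other filters, pseudocounts of 16 and 64, no trend, array weights, the mean of a gene's probe sets and leaving out each array were tried.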

Additional observations from a re-analysis of the deposited data

How the results depend on the processing

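All 37 means were higher, 9 members did not overlap and 0 passed with quantile normalization, a median shift, no filter, the 60th percentile filter, both pseudocounts, no trend, the mean of probe sets and the replicate block. Over these settings 9.28% to 11.1% of kept genes were apart and higher, and 45.0% to 51.1% had higher means. The 9 members were the same genes in each setting but the mean of probe sets, where PSMC2 was lost and PSMD11 gained. Same-numbered arrays deviated together with correlations of 0.06, 0.07 and 0.23. No values for unlike-numbered arrays are given beside them, so these correlations cannot decide whether the numbers pair the samples. The GAPDH ratio ranked the replicate numbers in the same order in both groups. The main comparison did not pair the samples, and its smallest limma adjusted p of a member was 0.251. With the replicate block it was 0.166. With array weights, which were 0.195 for hypertensive replicate 2 and 6.96 for normotensive replicate 1, 20 members were called, against 16.9% of all probe sets higher and 22.3% lower. Of the lists, 4 of 9 assembly genes (2 of them lower), 4 of 7 interferon genes and 4 of 9 peptide genes (1 lower) were called, where 39.2% of probe sets were called in either direction. The weights turned PSMB6 to -0.0206, PSMD8 to -0.22, PSMD13 to -0.22 and PSME3 to -0.35. The median of the ubiquitin list, 0.32, was 0.13 with quantile normalization and 0.077 with array weights.

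With 1 array left out, members called ranged from 0 to 20 (0 to 10.3% of probe sets called higher), those without overlap from 9 to 29 (11.1% to 24.0% of kept genes), and the median of base subunits other than ATPases from 0.42 to 1.13. Called genes of the assembly list ranged from 0 to 4 and of the interferon and peptide lists from 0 to 3 each, the highest without hypertensive replicate 2, when 24.3% of probe sets were called in either direction. Medians ran from -0.048 to 0.27 for the assembly list and from 0.14 to 0.43 for the ubiquitin list. Differences crossed 0 in PSMA7 (-0.015 to 0.31), PSMB6 (-0.023 to 0.23), PSMD8 (-0.085 to 0.33), PSMD14 (-0.017 to 0.62) and PSME3 (-0.19 to 0.24). The 3 ratios of subunits kept their sign under all alternatives; that of PSMB10 to PSMB7 was 0.21 with array weights, and with the replicate block, where 0.25 is the smallest possible p, exact p was 0.5, 0.25 and 0.25. Folds moved by over 1.5 times in PSMB8, PSMB3 and PSME4. The causes were not tested.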
